A study of Mus musculus with 6 samples.

Results

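Genes of macrophage iron handling were followed through 3 conditions of cultured mouse macrophages. The set names 10 genes, and a gene counted as measured where a probe set (the group of array probes summarised into 1 value) was annotated with its symbol alone. This held for 9 of them among 22180 genes measured in this way: Slc40a1, Tfrc, Slc11a2, Slc11a1, Steap3, Cd163, Hmox1, Fth1 and Ireb2. Where a gene has several such probe sets the rule keeps the brightest, but each of the 9 had only 1 such probe set, so no measured value decided between them. The 6 probe sets that name the ferritin light chain gene Ftl1 also name ferritin pseudogenes, and Ftl1 is not analysed here.

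The 6 arrays form 3 groups of 2. Bone marrow of C57Bl/6 mice was first grown for 5 days in 20 ng/ml M-CSF, the growth factor that turns marrow precursors into macrophages. A further 6 days followed under 1 of 3 conditions. The M-CSF group received that factor at 50 ng/ml, the FSL-1 group received FSL-1 at 20 ng/ml, and the FSL-1 + nutlin-3a group received 10 µM nutlin-3a on top of the same dose of FSL-1. FSL-1 is a synthetic lipopeptide that activates TLR2 together with TLR6, and the series design speaks of multinucleated giant cells in this experiment. Nutlin-3a frees p53 from Mdm2, the ligase that marks it for degradation, and so raises p53. The labels do not state if M-CSF stayed in the medium beside FSL-1, nor by which gate cells were sorted before RNA extraction. No label names separate cultures or animals behind the 2 arrays of a group, so p-values measure only the spread between these arrays, which may be technical.

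Macrophages take up iron bound to transferrin through the transferrin receptor, reduce it in the endosome and pass it to the cytosol through a divalent metal transporter. They also take up iron as haem and haemoglobin, above all from old red cells, and release it from haem with haem oxygenase. Iron that is not needed at once is held inside ferritin shells, and ferroportin, the only known iron exporter of mammalian cells, returns iron to the circulation. Iron regulatory proteins sense cytosolic iron and bind the mRNAs of the importers, ferritins and ferroportin. Inflamed macrophages are known for holding on to iron.

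All values are log2 expression after the authors' RMA, a procedure that removes background, equalises the arrays and summarises the probes, so a difference of 1 is a 2-fold change. Across genes, the correlation was 0.9929 to 0.9951 within groups and 0.9788 to 0.9858 between them, and array medians lay between 5.05 and 5.14. All 10 macrophage markers (among them Adgre1, Cd68 and Lyz2) lay above the median level of all genes, 5.515, on each array. Probes differ in brightness, so a value's place among other probe sets is a rough guide, and no gene is ranked against another by its level. In these bulk samples, fewer cells of a type and less RNA per cell cannot be told apart.

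With FSL-1, the exporter Slc40a1 fell and 3 genes rose: the importers Slc11a2 and Tfrc and the haem-degrading Hmox1. These 3 of 9 genes that rose (33.3%) stand against 3.91% of all 22180 genes, the 1 that fell (11.1%) against 2.95%, and the 4 together against 6.86%, at an adjusted p under 0.05 (limma, Benjamini-Hochberg over all genes). The other 5 genes did not pass. When only genes at or above the median level were tested, 2682 of 11090 were called with FSL-1, in either direction. At most 1 of the 9 lay below that level on any array, so the share over all genes may be a low standard for them. The median log2 change of the 9 genes was 0.12, and that of all genes -0.01. The count of 3 became 1, with Slc11a2 left, when 1 of the 4 M-CSF or FSL-1 arrays was omitted, whichever it was, and 2 without either FSL-1 + nutlin-3a array, which alters the shared estimate of the spread. That Slc40a1 is among the genes most reduced by FSL-1 was known from earlier results on these arrays when the set was drawn up.

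With nutlin-3a added to FSL-1, Slc40a1 rose (1 of 9 genes, against 2.38% of all genes) and none of the 9 fell (against 4.12%, or 6.5% in either direction). At an unadjusted p under 0.05 these counts were 2 and 0 in limma, the second gene being Hmox1, and they were 2 and 0 after adjustment with limma's trended and robust estimate of the spread. Cultures with FSL-1 + nutlin-3a had Slc11a2, Tfrc and Hmox1 higher than those in M-CSF (3 of 9, against 4.58%) and Slc40a1 lower (1 of 9, against 4.94%, or 9.51% in either direction). The median change of the 9 genes was -0.05 with nutlin-3a (0.02 over all genes) and 0.07 for FSL-1 + nutlin-3a against M-CSF (0.02 over all genes). The 3 comparisons share arrays pairwise, so their values stand side by side and are not independent.

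**Figure D1:**
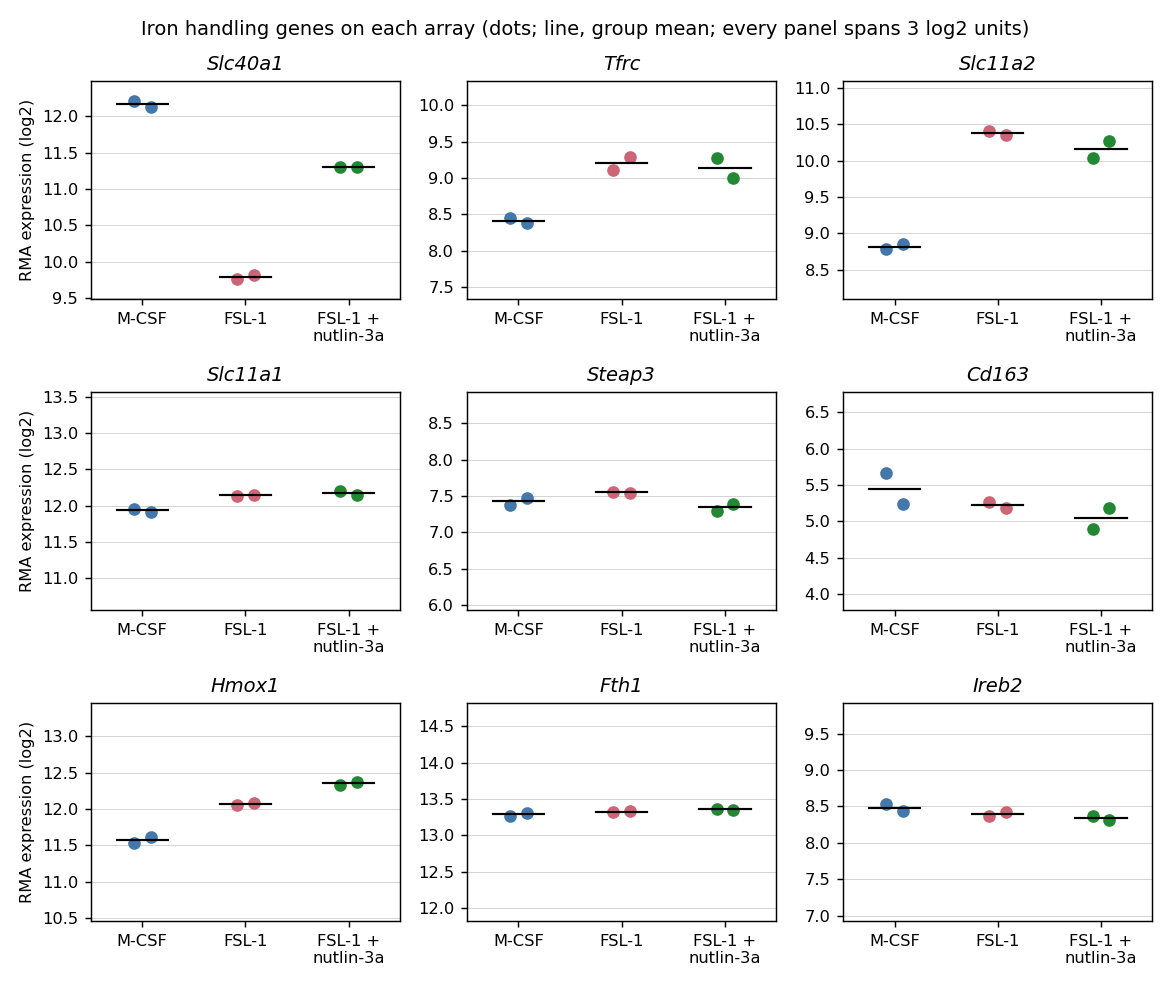
RMA expression (log2, vertical axis) of the 9 iron handling genes on each of the 6 arrays, by culture condition. Dots are arrays and lines group means, and every panel spans the same 3 log2 units. Slc40a1 drops from 12.17 in M-CSF to 9.79 in FSL-1 and stands at 11.31 with nutlin-3a, Slc11a2 and Tfrc are higher in both FSL-1 conditions, and Fth1 and Ireb2 lie almost level.

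Slc40a1 encodes ferroportin, the exporter through which a macrophage gives up its iron. Its level was 12.21 and 12.12 on the M-CSF arrays, 9.76 and 9.82 on the FSL-1 arrays, and 11.31 and 11.31 on the FSL-1 + nutlin-3a arrays (log2, probe set 17222777). The 3 groups were fully separate, with M-CSF highest, FSL-1 lowest and the nutlin-3a cultures between them. The SD within groups was 0.0592 in M-CSF, 0.0404 in FSL-1 and 0.0023 with nutlin-3a (n = 2 each), small beside the steps between the groups.

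With FSL-1, Slc40a1 was 5.18-fold lower than in M-CSF (log2 change -2.37, SE 0.111, 95% interval -2.63 to -2.12, limma adjusted p = 2.91e-05). Among the changes of all 22180 genes it ranked 3 from the bottom. With nutlin-3a it was 2.86-fold higher than in FSL-1 alone (log2 change 1.51, 95% interval 1.26 to 1.77, adjusted p = 0.000402), and ranked 17 from the top. The return was not complete: the level with nutlin-3a was still 1.81-fold below M-CSF (log2 change -0.86, 95% interval -1.12 to -0.60, adjusted p = 0.00263). All 3 calls held under each of the 14 alternatives run, including the omission of each array, with adjusted p up to 0.000957, 0.00794 and 0.0221. The first and second of these differences both rest on the same 2 FSL-1 arrays, which pull them in opposite directions. Some of the 14 alternatives coincide, and averaging probe sets leaves the values of a gene with 1 probe set, such as Slc40a1, unchanged.

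The genes whose profile over the 6 arrays lay closest to that of Slc40a1 were sought among the genes at or above the median level, after centring each gene on its own mean. They were Il12rb2, a chain of the interleukin-12 receptor (root mean square difference 0.248 log2 units, Pearson r = 0.987 over 6 arrays), Arrdc3, an arrestin-domain protein (0.251, r = 0.972), and the membrane protein Plxdc2 (0.266, r = 0.966). Il12rb2 read 8.26 and 8.10 in M-CSF, 6.30 and 6.45 in FSL-1, and 7.81 and 7.73 with nutlin-3a. Each of these genes had its lowest group in FSL-1 and an intermediate group with nutlin-3a, as Slc40a1 had. The correlations describe 3 groups of replicate arrays and carry no test.

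**Figure D2:**
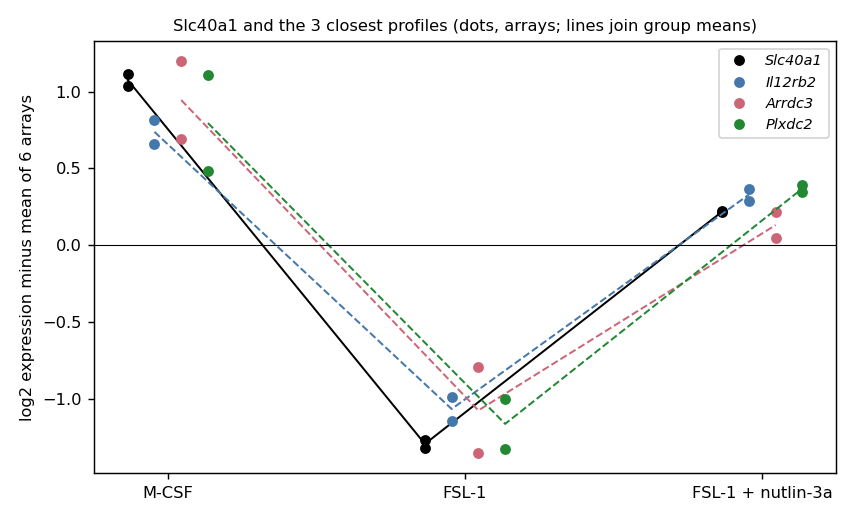
Expression of Slc40a1 and the 3 genes with the closest profiles, as log2 expression minus each gene's mean over the 6 arrays (vertical axis), by culture condition. Dots are arrays, offset sideways by gene, and lines join group means (solid for Slc40a1). All 4 genes lie highest in M-CSF, lowest in FSL-1 and in between with nutlin-3a.

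Of the 4 genes grouped here under import (Tfrc, Slc11a2, Slc11a1 and Steap3), 2 rose with FSL-1, against 3.91% of all genes. Tfrc encodes the transferrin receptor, which carries transferrin-bound iron into endosomes. It read 8.45 and 8.38 in M-CSF, 9.11 and 9.29 in FSL-1, and 9.276 and 8.996 with nutlin-3a (log2, probe set 17324835). Both FSL-1 groups lay above M-CSF on every array and overlapped each other. Tfrc was 1.72-fold higher in FSL-1 than in M-CSF (log2 change 0.79, SE 0.137, adjusted p = 0.0151) and 1.65-fold higher with nutlin-3a than in M-CSF (0.72, adjusted p = 0.0153). Between FSL-1 with and without nutlin-3a the difference was -0.06 (95% interval -0.38 to 0.25, adjusted p = 0.848), and its sign turned without FSL-1 replicate 2 or FSL-1 + nutlin-3a replicate 2.

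The Tfrc calls were less firm than that of Slc40a1. Without M-CSF replicate 1 or 2, or without FSL-1 replicate 1 or 2, the adjusted p for FSL-1 against M-CSF rose to between 0.0657 and 0.117, with changes of 0.70 to 0.87. For FSL-1 + nutlin-3a relative to M-CSF the call was lost without either M-CSF array or FSL-1 + nutlin-3a replicate 1 (adjusted p = 0.0648, 0.0751 and 0.0839). The genes closest to Tfrc in profile were Gbe1, the glycogen branching enzyme (root mean square difference 0.0234 log2 units, r = 0.998 over 6 arrays), Kpna4, a nuclear import adapter (0.0684, r = 0.983), and Ppp3cc, a calcineurin subunit (0.0803, r = 0.977).

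Promoter windows from RefSeq (GRCm38.p6, 250 bases before to 50 after each listed transcript start) were at hand for 7 of the 10 genes, in 12 windows, and not for Slc40a1, Hmox1 and Slc11a2. They were searched on both strands for ACGTG and for TGACNNNGC, the core of the antioxidant response element bound by NRF2. ACGTG is a form of the core bound by hypoxia-inducible factors and is also part of the E-box CACGTG. The other form of that core, GCGTG, was not counted. ACGTG was found in 3 of the 12 windows, against 19.6% of 32851 windows of all genes: in both overlapping Tfrc windows, at the same site, and in that of Cd163, on the minus strand and starting 31 bases into the transcript. TGACNNNGC was found in 0 of the 12, against 12.4% of all windows. Below are the Tfrc stretch, as the gene that rose with a match, up to the end of the match (chr16:32608646-32608898, plus strand, upstream of the transcript start at 32608896 and 3 bases past it), and the stretch upstream of a Fth1 transcript start, as the ferritin gene that did not pass (chr19:9982396-9982645, plus strand). Capitals mark the motif ACGTG, which begins 2 bases before the Tfrc start. The form GCGTG is not marked, though both printed stretches hold its reverse complement CACGC. A match is a description of the letters and does not show that a factor binds there. The stretches were picked by these outcomes, and Cd163, which also has a match, did not pass in any comparison.
Tfrc: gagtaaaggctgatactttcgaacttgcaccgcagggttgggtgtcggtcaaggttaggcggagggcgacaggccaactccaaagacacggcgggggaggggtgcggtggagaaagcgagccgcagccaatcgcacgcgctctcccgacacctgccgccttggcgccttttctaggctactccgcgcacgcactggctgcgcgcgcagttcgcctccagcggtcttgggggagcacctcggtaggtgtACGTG
Fth1: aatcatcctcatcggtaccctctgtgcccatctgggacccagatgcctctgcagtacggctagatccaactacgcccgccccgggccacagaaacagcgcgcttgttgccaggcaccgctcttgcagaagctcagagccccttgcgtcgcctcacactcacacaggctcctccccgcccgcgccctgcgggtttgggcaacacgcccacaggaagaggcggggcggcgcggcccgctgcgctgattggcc

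Slc11a2 encodes the divalent metal transporter that moves iron out of the endosome after uptake through the transferrin receptor. Its level was 8.79 and 8.85 in M-CSF, 10.40 and 10.36 in FSL-1, and 10.04 and 10.28 with nutlin-3a (log2, probe set 17321683). The FSL-1 arrays were highest, the nutlin-3a arrays just below them without overlap, and the M-CSF arrays lowest. The rise with FSL-1 was 2.95-fold (log2 change 1.56, SE 0.125, 95% interval 1.27 to 1.85, adjusted p = 0.000393), the highest among the 9 genes, with rank 130 among all genes. With nutlin-3a it remained 2.53-fold above M-CSF (1.34, adjusted p = 0.000518). Nutlin-3a moved it by -0.22 relative to FSL-1 (95% interval -0.51 to 0.07, adjusted p = 0.366). Both calls against M-CSF held under all 14 alternatives, with adjusted p up to 0.00768 and 0.00622.

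Slc11a1, the phagosomal relative of Slc11a2 known for its part in resistance to intracellular microbes, moved little. It read 11.96 and 11.92 in M-CSF, 12.14 and 12.15 in FSL-1, and 12.20 and 12.15 with nutlin-3a (log2, probe set 17214197). The FSL-1 arrays lay above the M-CSF arrays, but the difference of 0.21 did not pass (95% interval -0.05 to 0.46, adjusted p = 0.345), nor did that of 0.24 for FSL-1 + nutlin-3a against M-CSF (adjusted p = 0.242). With the trended and robust estimate of the spread both passed (adjusted p = 0.0367 and 0.0155, lowest of 14 alternatives that reached up to 0.594 and 0.454). The interval for Slc11a1 with FSL-1 lay below that for Slc11a2, whose lower end was 1.27.

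Steap3 encodes the endosomal reductase that prepares ferric iron for transport, and is also known as Tsap6, a gene that p53 can induce. Its level was 7.37 and 7.48 in M-CSF, 7.56 and 7.54 in FSL-1, and 7.30 and 7.39 with nutlin-3a (log2, probe set 17226313). The nutlin-3a arrays overlapped those in M-CSF and lay below those in FSL-1. None of the differences passed: 0.12 with FSL-1 (adjusted p = 0.621), -0.21 with nutlin-3a against FSL-1 (95% interval -0.47 to 0.06, adjusted p = 0.36) and -0.08 for FSL-1 + nutlin-3a against M-CSF (adjusted p = 0.731), in limma. The interval with nutlin-3a holds no increase above 0.06 log2 units.

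Of the haem branch, Cd163 encodes the scavenger receptor for haemoglobin bound to haptoglobin. It read 5.66 and 5.24 in M-CSF, 5.27 and 5.19 in FSL-1, and 4.90 and 5.19 with nutlin-3a (log2, probe set 17462843). The M-CSF arrays differed from each other by more than their mean differed from that in FSL-1. Its changes of -0.22 with FSL-1 (adjusted p = 0.535), -0.19 with nutlin-3a (adjusted p = 0.603) and -0.41 for FSL-1 + nutlin-3a against M-CSF (95% interval -0.80 to -0.02, adjusted p = 0.193) did not pass. The distance of these values from background was not tested.

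Hmox1 encodes haem oxygenase, which opens the haem ring and frees its iron, and is a known target of NRF2. It read 11.53 and 11.61 in M-CSF, 12.05 and 12.08 in FSL-1, and 12.33 and 12.38 with nutlin-3a (log2, probe set 17502573). The groups did not overlap, and their order was M-CSF, FSL-1, FSL-1 + nutlin-3a from low to high. It rose 1.41-fold with FSL-1 (log2 change 0.50, SE 0.111, 95% interval 0.24 to 0.76, adjusted p = 0.037), and FSL-1 + nutlin-3a stood 1.72-fold above M-CSF (0.78, adjusted p = 0.00402). The step from FSL-1 to FSL-1 + nutlin-3a, 0.28, did not pass (95% interval 0.03 to 0.54, adjusted p = 0.19), though it did with the trended and robust estimate (adjusted p = 0.00892, with up to 0.456 over the 14 alternatives).

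The call of Hmox1 with FSL-1 was fragile. It was lost without any 1 of the 6 arrays (adjusted p = 0.0559 to 0.192, changes 0.46 to 0.54), with each array centred on its median (adjusted p = 0.0523) and when the M-CSF and FSL-1 arrays were fitted alone (adjusted p = 0.0559), within a range of 0.000191 to 0.192 over the 14 alternatives. The call against M-CSF with nutlin-3a present held under all 14 alternatives, with adjusted p up to 0.0303. Closest in profile were Spryd4 (root mean square difference 0.0255 log2 units, r = 0.997 over 6 arrays), Klhdc1 (0.0347, r = 0.994) and Tigar, a regulator of glycolysis (0.0379, r = 0.994).

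Fth1 encodes the ferritin heavy chain, which oxidises iron as it enters the storage shell. Its level was 13.27 and 13.31 in M-CSF, 13.32 and 13.33 in FSL-1, and 13.36 and 13.35 with nutlin-3a (log2, probe set 17357418). The 6 arrays lay within 0.1 of each other, and none of the differences passed: 0.04 with FSL-1 (95% interval -0.22 to 0.29, adjusted p = 0.909), 0.03 with nutlin-3a (adjusted p = 0.915) and 0.07 for FSL-1 + nutlin-3a against M-CSF (adjusted p = 0.776). The first of these turned to -0.01 when quantile normalization was applied once more. Fth1 was only 0.272 below the highest value of any probe set on any array. The changes of the 20 genes with a mean of 13 or more ran from -0.14 to 0.26 with FSL-1 and from -0.32 to 0.21 with nutlin-3a. Whether signals near the top of the scale were compressed was not tested.

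Ireb2 encodes iron regulatory protein 2, a sensor that is degraded when iron is plentiful, so that its control is largely at the protein level, which arrays do not measure. It read 8.53 and 8.44 in M-CSF, 8.36 and 8.42 in FSL-1, and 8.37 and 8.31 with nutlin-3a (log2, probe set 17517424). The M-CSF arrays were highest, and the FSL-1 groups overlapped each other. Its changes were -0.09 with FSL-1 (95% interval -0.35 to 0.17, adjusted p = 0.73), -0.05 with nutlin-3a (adjusted p = 0.841) and -0.15 for FSL-1 + nutlin-3a against M-CSF (adjusted p = 0.493), and none passed.

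**Figure D3:**
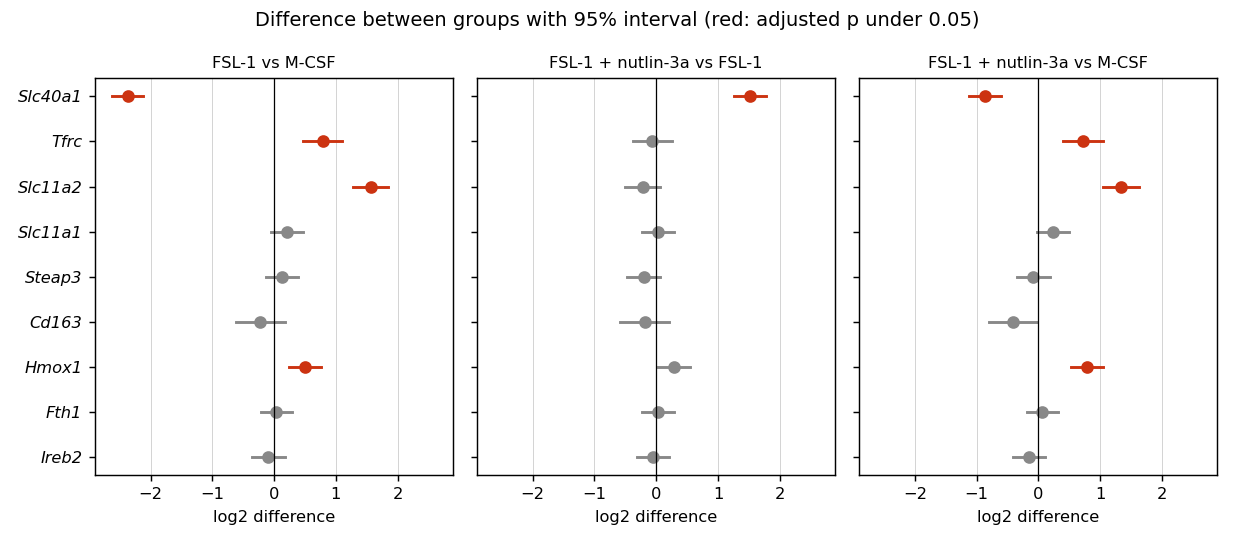
Difference in log2 expression between groups (horizontal axis, dots) with its 95% interval (bars) for the 9 genes in the 3 comparisons, from the limma fit on all 6 arrays. Red marks an adjusted p under 0.05. With FSL-1, Slc40a1 lies at -2.37 and Slc11a2 at 1.56, and with nutlin-3a only the Slc40a1 difference, 1.51, is red.

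The arrays of 2 groups often do not overlap even for genes that fail the test. With FSL-1 the groups were separate for 6 of the 9 genes in the upward and 2 in the downward direction, against 24.6% and 25.6% of all genes (50.2% in either). With nutlin-3a against FSL-1 this held for 3 genes upward and 3 downward, against 27.2% and 23.7% (50.9% in either). For FSL-1 + nutlin-3a against M-CSF it held for 5 upward and 3 downward, against 27.3% and 24.2% (51.5% in either).

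A wider list of 63 iron genes, which includes the 10 genes above, placed these changes in the pathway, and 58 of its genes were measured. It was chosen with earlier results of these data known. Only 12 to 13 of the 58 lay below the median level on each array, so the share over all genes may be a low standard here too. With FSL-1, 9 of the 58 rose (15.5%, against 3.91% of all genes) and 3 fell (5.17%, against 2.95%), with a median log2 change of 0.04 (-0.01 over all genes). With nutlin-3a against FSL-1, 5 rose (8.62%, against 2.38%) and 3 fell (5.17%, against 4.12%), with a median of 0.03 (0.02 over all genes). For FSL-1 + nutlin-3a against M-CSF, 10 rose (17.2%, against 4.58%) and 3 fell (5.17%, against 4.94%), with a median of 0.10 (0.02 over all genes). Among the 49 measured genes of this list outside the set of 10, 6 rose and 2 fell with FSL-1 (12.2% and 4.08%), 4 rose and 3 fell with nutlin-3a (8.16% and 6.12%), and 7 rose and 2 fell with FSL-1 + nutlin-3a relative to M-CSF (14.3% and 4.08%). Omission of M-CSF replicate 1 or of FSL-1 replicate 1 took the count of 9 to 5, omission of M-CSF replicate 2 to 6, and omission of FSL-1 replicate 2 to 4. The count of 3 that fell with FSL-1 became 1 when M-CSF replicate 1 or an FSL-1 array was omitted. Omission of an M-CSF array took the count of 5 to 3, and omission of an array from the other groups took it to 2. The count of 3 that fell with nutlin-3a became 1 when an FSL-1 array or FSL-1 + nutlin-3a replicate 2 was omitted, and omission of M-CSF replicate 1 took the count of 10 to 6.

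Of 12 import genes, 5 rose with FSL-1 (41.7%, against 3.91% of all genes) and 0 fell (against 2.95%), with 5 and 0 at an unadjusted p under 0.05 (limma). Of these 5 calls, 3 were left without FSL-1 replicate 2, where Tfrc and Slc39a14 were lost, and 4 without M-CSF replicate 1 or 2 or FSL-1 replicate 1, where Tfrc was lost. Beside Tfrc and Slc11a2, the genes of this list that rose included Slc39a14 and Slc39a8, zinc transporters that also carry iron not bound to transferrin. Also counted was Lcn2, lipocalin 2, a protein that binds iron-loaded siderophores and is not itself a transporter. Slc39a14 read 7.08 and 7.22 in M-CSF, 7.96 and 8.15 in FSL-1, and 7.85 and 7.84 with nutlin-3a. Its change with FSL-1 was 0.90 (adjusted p = 0.00535, lost without FSL-1 replicate 2). Slc39a8 read 8.33 and 8.36 in M-CSF, 9.20 and 9.24 in FSL-1, and 8.98 and 9.03 with nutlin-3a, a change of 0.88 with FSL-1 (adjusted p = 0.00362). In both transporters the FSL-1 + nutlin-3a arrays also stood above those in M-CSF (0.69, adjusted p = 0.0113, and 0.66, adjusted p = 0.00826). The second Slc39a14 call was lost when M-CSF replicate 1 or an FSL-1 + nutlin-3a array was omitted.

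Lcn2 had the highest change of the wider list with FSL-1. It read 5.95 and 5.73 in M-CSF, 8.69 and 8.53 in FSL-1, and 6.54 and 7.13 with nutlin-3a. It rose 6.84-fold with FSL-1 (log2 change 2.77, SE 0.197, adjusted p = 0.000202) and was 3.42-fold lower with nutlin-3a than in FSL-1 alone (-1.78, adjusted p = 0.00246). Mcoln1, a lysosomal cation channel that can release iron, was the import gene that rose with nutlin-3a (0.48, adjusted p = 0.0477), a call that did not survive the omission of a single array.

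Among the other genes of export, Cp, ceruloplasmin, the ferroxidase that assists ferroportin, moved in the directions opposite to Slc40a1. It read 5.42 and 5.09 in M-CSF, 6.65 and 6.78 in FSL-1, and 5.78 and 5.52 with nutlin-3a. Its M-CSF values lay below the median level of all genes, 5.515. For FSL-1 + nutlin-3a against M-CSF its difference of 0.39 did not pass (limma adjusted p = 0.172). It rose with FSL-1 (log2 change 1.45, SE 0.155, adjusted p = 0.00168) and fell with nutlin-3a (-1.06, adjusted p = 0.00798, lost without FSL-1 replicate 1 or 2 or FSL-1 + nutlin-3a replicate 2). The hepcidin encoded by Hamp removes ferroportin from the cell surface. Hamp and the second hepcidin gene, Hamp2, lay between 2.73 and 4.02 on all arrays, below the median of the unnamed probe sets. The difference in Hamp with FSL-1 was 0.08 (adjusted p = 0.872).

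Of 5 storage genes, 1 fell with FSL-1 (20%, against 2.95% of all genes) and 0 rose (against 3.91%). The gene that fell was Ncoa4, the receptor that delivers ferritin to the lysosome for breakdown. It read 10.42 and 10.44 in M-CSF, 9.74 and 9.78 in FSL-1, and 9.72 and 9.73 with nutlin-3a. Its change with FSL-1 was -0.67 (adjusted p = 0.0114, lost without M-CSF replicate 1 or either FSL-1 array), and against M-CSF with nutlin-3a present it was -0.70 (adjusted p = 0.00597, held without any 1 array). Between the FSL-1 groups its difference was -0.04 (adjusted p = 0.897).

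In the haem branch, Lrp1, a large receptor that also clears haem bound to hemopexin, fell with FSL-1 and rose with nutlin-3a. It read 11.05 and 10.77 in M-CSF, 10.03 and 10.05 in FSL-1, and 11.37 and 11.10 with nutlin-3a. Its change was -0.87 with FSL-1 (adjusted p = 0.0129, lost without M-CSF replicate 1 or either FSL-1 array) and 1.196 with nutlin-3a (adjusted p = 0.00388, held without any 1 array). Slc46a1, a folate and haem transporter, rose by 0.63 with nutlin-3a (adjusted p = 0.0437, lost without any 1 of the 6 arrays) and was 0.89 above M-CSF (adjusted p = 0.00751, lost without FSL-1 + nutlin-3a replicate 2). Of the 13 haem genes, 1 rose and 1 fell with FSL-1 (7.69% each, against 3.91% and 2.95% of all genes), and the rise, that of Hmox1, was lost whichever single array was omitted. With nutlin-3a 2 rose (15.4%, against 2.38%) and 0 fell (against 4.12%), with 4 and 3 at an unadjusted p under 0.05 (limma), and of the 2 rises that of Lrp1 was left when a single array was omitted.

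Of 12 measured genes of mitochondrial iron use and haem synthesis, 1 rose with FSL-1 (8.33%, against 3.91% of all genes). With nutlin-3a 1 rose as well (8.33%, against 2.38%). The gene that rose with FSL-1 was Alas1, which catalyses the first step of haem synthesis. It read 9.49 and 9.40 in M-CSF, 10.25 and 10.36 in FSL-1, and 10.20 and 10.46 with nutlin-3a. Its change was 0.86 (adjusted p = 0.00863, lost without M-CSF replicate 1 or either FSL-1 array), and 0.88 for FSL-1 + nutlin-3a against M-CSF (adjusted p = 0.00506, held without any 1 array). Iscu, the scaffold on which iron-sulfur clusters are built, read 8.69 and 8.49 in M-CSF, 8.74 and 8.85 in FSL-1, and 9.38 and 9.44 with nutlin-3a. It rose by 0.62 with nutlin-3a (adjusted p = 0.0272, lost when an FSL-1 or FSL-1 + nutlin-3a array was omitted) and was 0.82 above M-CSF (adjusted p = 0.00509, held without any 1 array).

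Of 11 regulators, 1 rose with FSL-1 (9.09%, against 3.91% of all genes). The same gene was the 1 that fell with nutlin-3a (9.09%, against 4.12%): Hif1a, the oxygen-regulated subunit of hypoxia-inducible factor. It read 8.60 and 8.70 in M-CSF, 9.12 and 9.13 in FSL-1, and 8.62 and 8.58 with nutlin-3a. Its changes of 0.47 (adjusted p = 0.0459) and -0.53 (adjusted p = 0.0343) did not survive the omission of an array from the groups compared, and the first was also lost when an FSL-1 + nutlin-3a array was omitted. Nfe2l2, which encodes NRF2, read 11.50 in M-CSF, 11.52 in FSL-1 and 11.63 with nutlin-3a as group means, and Bach1, the haem-sensitive repressor of Hmox1, 8.81, 8.97 and 8.49, and neither passed in any of the 3 comparisons.

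**Figure D4:**
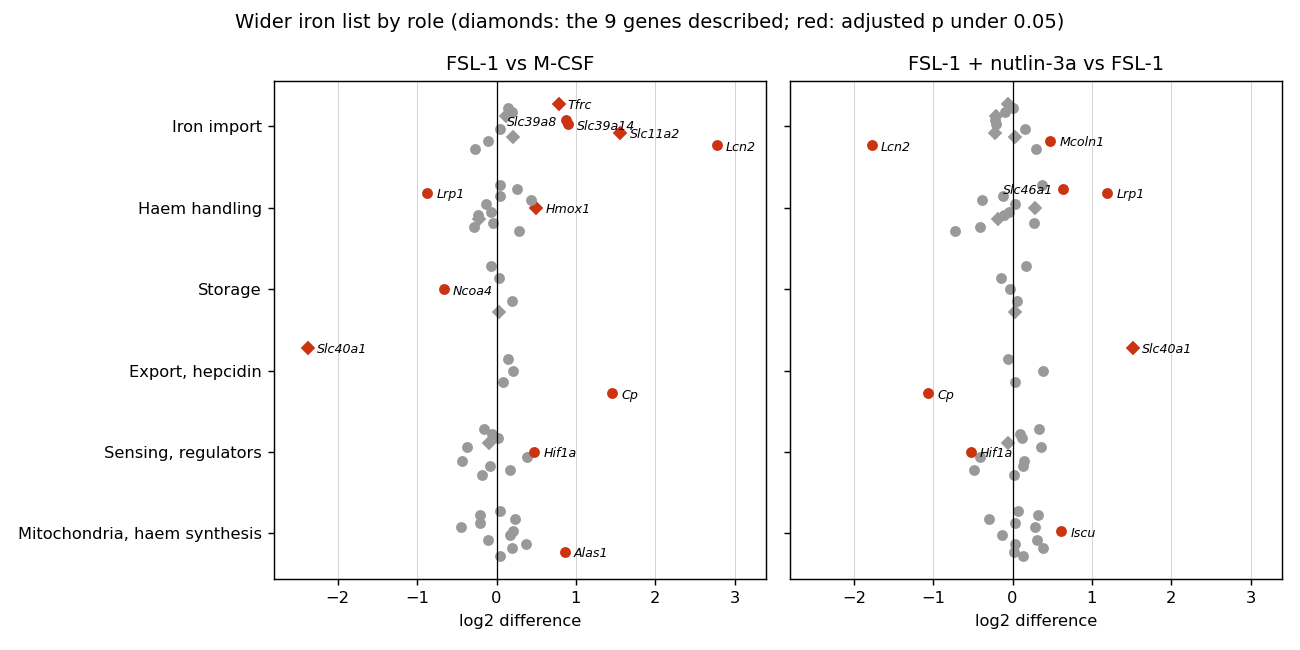
Difference in log2 expression (horizontal axis) of 58 iron genes grouped by role, for FSL-1 against M-CSF (left) and FSL-1 + nutlin-3a against FSL-1 (right). Diamonds are the 9 genes described first, circles the rest of the list, and red with a name marks an adjusted p under 0.05. Slc40a1 and Lrp1 are lower on the left and higher on the right, and Lcn2, Cp and Hif1a the reverse, in comparisons that share the FSL-1 arrays.

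Markers of other cell types were read beside these results. Of all genes, 3.91% rose and 2.95% fell with FSL-1, and 2.38% rose and 4.12% fell with nutlin-3a. In lists of this size, 1 called gene cannot be told from these shares. Of 14 neutrophil markers, 3 rose with FSL-1 (S100a8, Cxcr2 and Mmp8) and 1 fell with nutlin-3a (Mmp8), and the mean level of the list was 4.89 to 4.94 in M-CSF, 5.34 to 5.36 in FSL-1 and 5.25 to 5.29 with nutlin-3a. Mmp8 read 6.11 and 5.86 in M-CSF, 8.45 and 8.55 in FSL-1, and 7.94 and 7.82 with nutlin-3a, and Csf3r lay between 7.90 and 8.51 on all arrays, while Ly6g, Elane and Mpo lay between 3.80 and 5.40. Of 10 fibroblast and stromal markers, Acta2 rose with FSL-1 while Acta2 and Col1a2 fell with nutlin-3a, and the mean level was 5.26 to 5.33 in M-CSF, 5.52 to 5.61 in FSL-1 and 5.27 to 5.30 with nutlin-3a, highest in FSL-1 where Slc40a1 was lowest. Of 10 lymphocyte markers, Ighm (10.59 in M-CSF, 9.31 in FSL-1 and 7.35 with nutlin-3a) and Cd4 fell and Cd79b rose with FSL-1, Ighm fell and Cd4 rose with nutlin-3a, and the mean level was 5.55 to 5.64, 5.29 to 5.41 and 5.27 to 5.37 in the 3 groups. The T cell gene Cd3e lay between 4.12 and 4.47 on all arrays. Of 9 dendritic cell markers, Ccr7 and Bst2 rose with FSL-1 (mean level 5.82 to 5.87, 6.01 to 6.06 and 5.93 to 5.97). Of 7 erythroid markers measured (the haemoglobin genes were not analysed here), Epor fell with FSL-1 (mean level 4.84 to 4.90, 4.69 to 4.76 and 4.71 to 4.73), and Klf1 lay between 4.23 and 4.55. With FSL-1 the calls of S100a8, Mmp8 and Ighm held whichever single array was omitted, while that of Cd79b was lost each time and that of Cxcr2 in each case but M-CSF replicate 2. The other marker calls of this paragraph, apart from that of Ighm with nutlin-3a, were each lost without at least 1 array. The part of these markers in the results on iron genes was not tested.

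Macrophage markers moved as well. With FSL-1, Adgre1 and Itgam rose (2 of 10, against 3.91% of all genes) and Csf1r fell (1 of 10, against 2.95%). With nutlin-3a Cd14, Fcgr1 and Mrc1 fell (3 of 10, against 4.12%) and 0 rose (against 2.38%). All 3 FSL-1 calls were lost without M-CSF replicate 1 or either FSL-1 array, that of Adgre1 also without M-CSF replicate 2, and that of Mrc1 with nutlin-3a without either FSL-1 array. The mean level of the 10 markers was 11.49 to 11.59 in M-CSF, 11.54 to 11.62 in FSL-1 and 11.21 to 11.28 with nutlin-3a. Slc40a1 rose with nutlin-3a while this mean was lower, and the part of these markers in the results was not tested.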

How the data were processed

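Total RNA of sorted cells was amplified and biotin-labelled for Affymetrix arrays. Per the submitters' processing notes, the authors ran RMA with Expression Console 1.4, and the deposited unit is log2 expression per probe set. RMA equalises the distributions of probe intensities before probe sets are summarised, so a shift common to most genes would largely not be seen. Medians of the summarised values still differed slightly, from 5.05 to 5.14.

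The platform annotation names 1 gene for 23521 of 34390 probe sets, several for 1814 and none for 9055. The first gave 22180 genes, with the brightest probe set kept for the 1082 genes that had more. Of these probe sets, 23328 matched RefSeq by gene number, and 0 symbols changed. All 6 arrays entered a limma fit (version 3.58.1, R 4.3.3) with 3 residual and 4.88 prior degrees of freedom per gene, and a gene passed at an adjusted p (Benjamini-Hochberg, all genes) under 0.05. The fit was tested on simulated data for FSL-1 against M-CSF. It recovered 32.7% of 1.5-fold, 97.2% of 2-fold and 100% of 4-fold changes. A gene that did not pass may therefore still have a true change, of 1.5-fold or less or somewhat more. Sizes between 1.5-fold and 2-fold were not simulated, so no upper bound can be given. The simulated noise was normal, and fewer genes were changed than were called in the data.

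The members and lists were chosen with earlier results of these data known. Named are the members, up to 8 called genes of the wider list per comparison by smallest p, the 3 closest profiles to Slc40a1, Hmox1 and Tfrc (predicted genes passed over), and the cell type markers. Lrp1 and Hif1a with FSL-1, Slc39a14 against M-CSF, and Hamp, Hamp2, Nfe2l2 and Bach1 were chosen after their values were seen. The 14 alternatives were a trended and robust spread, quantile normalization once more, centring, averaging several probe sets of a gene, a filter at the median level, the compared groups alone, a replicate block, the same with M-CSF numbers swapped, and omission of each array.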

Additional observations from a re-analysis of the deposited data

How the results depend on the processing

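The Slc40a1 calls in 3 comparisons and the Slc11a2 calls against M-CSF held under all 14 alternatives, some of which coincide. The sign of Fth1 with FSL-1 turned after quantile normalization (-0.0082), and that of Tfrc with nutlin-3a when single arrays were left out (-0.2038 to 0.0767 over the 6 omissions; 0.0226 without replicate 2 of FSL-1 and 0.0767 without that of FSL-1 + nutlin-3a). The cause of these and the following shifts was not tested, except that leaving out an array leaves its group with 1 array, assumed to vary like the others. With the trended and robust spread estimate, all genes called were 2744 (FSL-1 against M-CSF), 2658 (nutlin-3a against FSL-1) and 3337 (FSL-1 + nutlin-3a against M-CSF), instead of 1521, 1441 and 2110, the members called higher with nutlin-3a were 2, and 6 wider-list genes fell with nutlin-3a. With only genes at or above the median level, which leaves out Cd163 and tests fewer genes, these totals were 2682, 2579 and 3290, and 7 wider-list genes fell with nutlin-3a. The wider-list count of 5 that rose with nutlin-3a was 3 with centred arrays, 3 with the compared groups alone and 2 with the replicate block. With 1 array left out, all genes called ranged from 451 to 1299, 352 to 1212 and 1158 to 1529, members higher with FSL-1 from 1 to 2, wider-list genes higher from 4 to 7 (FSL-1), 2 to 3 (nutlin-3a) and 6 to 9 (against M-CSF), and wider-list genes lower from 1 to 3 (FSL-1) and 1 to 4 (nutlin-3a).

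The labels do not state if arrays were paired. Deviations of replicate 1 from the group mean correlated across genes at -0.188 (M-CSF and FSL-1), 0.0175 and -0.0248 (each with FSL-1 + nutlin-3a). With 2 arrays a group, a negative value means that opposite numbers deviated together, so these values cannot exclude pairing. With the replicate block, 1167, 1005 and 1725 genes were called in the 3 comparisons, Hmox1 with FSL-1 had an adjusted p of 0.0686, and no other call of a member changed. With the M-CSF numbers swapped, a block chosen after seeing the data, 2 members rose and 1 fell with FSL-1. The number of arrays, 2 a group, limits the precision of every value, and no background level is known for genes such as Cd163.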
